A study of Homo sapiens with 58 samples.

Results

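The transcripts of cholesterol and fatty acid synthesis were described across 58 human cell lines labelled as breast cancer. The members are 33 genes listed by name: 17 enzymes of sterol synthesis, 11 enzymes that make, elongate or desaturate fatty acids, and 5 regulators and carriers. Each gene was read from the probe set that names it alone and has the highest mean, and 30 of the 33 members have such a probe set among the 19798 genes measured. These are 15 sterol enzymes, 10 fatty acid enzymes and all 5 regulators and carriers. The levels of FDFT1, HSD17B7 and ACSL3 were not analysed here. All 30 passed the filter on low values, which asks for a level above the array's own median in at least 3 units.

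Every line was grown in the vendor's medium, received no treatment and was measured on 1 Affymetrix array, so no line has a replicate and the labels define no groups. Values are log2 intensities, so a difference of 1 is 2-fold, and levels are compared between lines and never between genes. The labels give no tumour subtype, receptor status, sex hormone supply, lipid content of the medium or cell density. Lines known to share a patient or parent line (AU565 with SKBR3, EFM192A with EFM192B and EFM192C, MDAMB435S with M4A4 and NM2C5, HMT3522S1 with HMT3522T42, VP229 with VP267, and MB157 with MDAMB157) were averaged, which leaves 50 units, and all tests and correlations use these units. M4A4 and NM2C5 were derived from MDAMB435S. The breast origin of this set and of MT3 has been disputed in the field. MCF12A, MCF102A and the HMT3522 lines are known as models of mammary epithelium that did not start from a tumour.

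Cells make cholesterol from acetyl-CoA through mevalonate, isoprenoid diphosphates, squalene and lanosterol, and make fatty acids from the same acetyl-CoA through malonyl-CoA. The transcription factors encoded by SREBF1 and SREBF2 switch on both sets of enzymes: when sterols run low, they are carried out of the endoplasmic reticulum and cut free, and INSIG1 holds them back when sterols are plentiful. SREBF2 is best known for sterol enzymes and SREBF1 for fatty acid enzymes, and both branches are often raised in breast tumours, the fatty acid branch in particular where the receptor kinase ERBB2 is abundant.

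Of the epithelial markers measured, the 9 genes had a mean level between 4.45 in HS605T and 12.21 in MDAMB175VII, with a median of 11.08. At least 5 of the 9 were above the array median in 45 lines. In the 4 lines HS362T, HS579MG, HS605T and HS739T the mean epithelial level was 4.45 to 5.28 and the mean level of the 10 mesenchymal and stromal markers was 12.94 to 12.99. Over the other 54 lines these means ran from 5.06 through a median of 11.18 to 12.21 and from 3.80 through 5.78 to 13.02, so the ranges overlap, as in HS578T at 5.46 and 13.02. The 4 lines were alike by their whole profile. Over all detected genes, centred on their medians, they correlated with each other at 0.84 to 0.93, where the median pair of lines had 0.05. HS578T came near them, at 0.62 to 0.69, and it was kept where the 4 lines were left out. OCUBF and OCUBM correlated at 0.76, although the labels do not tie them to each other. Of 7 blood cell markers measured 2 passed the filter, and PTPRC, CD3E, CD79A, SPI1 and HBB were above the array median in no line. Of 8 hepatocyte markers 4 passed, and TTR and AHSG were above it in no line. Of 8 adipocyte markers 6 passed, and only LEP was above it in no line. Each line had 1 to 4 of the hepatocyte markers and 2 to 6 of the adipocyte markers above its array median. Array medians lay between 5.37 and 5.58, and the number of arrays limits the precision.

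The first steps of the sterol branch turn acetyl-CoA into isoprenoid diphosphates. HMGCS1, the synthase that makes HMG-CoA, ranged from 9.12 in SUM149PT through a median of 11.84 to 13.21 in EVSAT. MVK, the mevalonate kinase, ranged from 6.68 in HS579MG through 8.13 to 10.11 in OCUBM. EVSAT, OCUBM and OCUBF held the 3 highest levels of MVK, and the 2 lowest were in HS579MG and HS362T. PMVK, the next kinase, ran from 9.10 in HCC1806 through 11.08 to 12.14 in T47D. The highest PMVK levels were in T47D, CAMA1 and ZR751, none of which was among the 3 highest for HMGCS1, MVK, MVD, IDI1 or FDPS. MVD, the decarboxylase that follows, ran from 7.0 in MDAMB157 through 8.51 to 10.56 in HCC70. IDI1, the isomerase of isopentenyl diphosphate, ran from 8.74 in SW527 through 11.05 to 12.48 in HCC70. FDPS, which joins these units to farnesyl diphosphate, ran from 10.80 in HS362T through 12.30 to 13.50 in DU4475. DU4475 and HCC1187 were among the 3 highest lines for both IDI1 and FDPS.

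The later enzymes turn squalene into cholesterol. SQLE, the squalene epoxidase, ranged from 9.41 in CAL148 through 11.35 to 13.15 in MFM223. LSS, which closes the sterol rings, ranged from 9.60 in SW527 through 10.88 to 12.09 in OCUBM. OCUBM thus held the highest LSS and MVK of all lines. CYP51A1, the lanosterol demethylase, was the least variable member, from 10.48 in MDAMB435S through 11.59 to 12.28 in EVSAT, with an SD of 0.32 over the 50 units. TM7SF2, a sterol reductase, was the most variable enzyme of the branch: it ran from 5.32 in HS579MG through 8.55 to 11.49 in T47D, with an SD of 1.79, and was above the array median in 56 lines. A second enzyme of the nuclear envelope is known to carry out the same reduction, and it is counted among the other sterol genes as LBR. MSMO1, the methylsterol oxidase, ran from 11.01 in MDAMB435S through 12.17 to 13.23 in HCC70. NSDHL, which removes the oxidised methyl groups, ran from 9.21 in HCC1143 through 10.24 to 11.99 in MDAMB468. HCC70 was the only line among the 3 highest for both MSMO1 and NSDHL. EBP, the sterol isomerase, ran from 9.38 in HS578T through 12.09 to 13.14 in DU4475. SC5D, the sterol desaturase, ran from 4.88 in MB157 through 9.13 to 11.23 in MDAMB468. DHCR7, the reductase of the last step, ran from 6.99 in HS362T through 10.09 to 11.66 in HCC1187. HS362T was among the 3 lowest lines for 7 of the 15 sterol enzymes, and MDAMB468 among the 3 highest for 6.

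In the fatty acid branch, ACLY and ACSS2 supply acetyl-CoA, from citrate and from acetate. ACLY ranged from 9.57 in VP229 through 11.61 to 12.64 in OCUBM, and ACSS2 from 6.83 in EFM192A through 9.09 to 11.70 in VP267. ACACA, the carboxylase that makes malonyl-CoA, ranged from 9.48 in M4A4 through 10.37 to 12.07 in ZR7530. FASN, the synthase itself, ranged from 7.83 in HS579MG through 8.97 to 10.69 in SKBR3. ZR7530 was among the 3 highest lines for ACACA, FASN, SCD and ME1. SCD, which puts the first double bond into saturated chains, ranged only from 11.56 in HS362T through 12.98 to 13.48 in EVSAT. Its SD was 0.37.

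Among the enzymes that elongate and further desaturate chains, ELOVL5 spread little and the others widely. ELOVL5, an elongase of polyunsaturated chains, ran from 10.57 in MFM223 through 12.10 to 12.81 in FR2, with an SD of 0.40. ELOVL6, the elongase of saturated chains, ran from 6.89 in MDAMB468 and EVSAT through 10.19 to 11.59 in HCC1954. By sterol enzymes MDAMB468 and EVSAT had ranks 4 and 1 of 58, while EFM192A, next in ELOVL6 at 6.91, had rank 37. Over the 50 units ELOVL6 had an r of -0.04 with the sterol score defined below. FADS1, a desaturase of polyunsaturated chains, ran from 4.52 in SKBR3 through 10.59 to 12.39 in FR2, with an SD of 1.78. Its neighbour on chromosome 11, the desaturase FADS2, ran from 4.75 in SKBR3 through 6.85 to 10.92 in HCC1187, with an SD of 1.65. SKBR3 and its sister line AU565 held the 2 lowest FADS1 levels, 4.52 and 5.29, followed by OCUBM at 5.38. ME1, the malic enzyme that makes NADPH for synthesis, was the most variable member of all, with an SD of 2.44. It ran from 3.85 in CAL148 through 10.71 to 13.01 in UACC893, and its units formed separate clusters. CAL148, OCUBM, MDAMB435S, CAMA1, T47D, OCUBF, CAL51 and MDAMB453 lay between 3.85 and 5.60, and the next line, HCC1569, was at 8.13.

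Among the regulators, SREBF1 ranged from 6.82 in SVCT through 8.15 to 10.11 in EFM192A. SREBF2 ranged from 6.35 in MCF102A through 8.35 to 9.98 in HCC70. INSIG1, whose own transcript is a known target of the pathway, ranged from 10.12 in EFM192C through 12.32 to 13.29 in HCC1395. None of these 3 genes fell into separate clusters of units, whereas EBP, ME1 and THRSP did. STARD4, a carrier of cholesterol in the cytosol, ranged from 4.74 in BT20 through 8.30 to 11.15 in SW527. THRSP, a nuclear protein of lipid-making tissues such as liver, fat and lactating breast, had a median of 2.77 and was above the array median in 12 lines, through which it passed the filter on low values. Its highest levels were 10.91 in OCUBM, 10.70 in UACC893, 9.57 in OCUBF and 9.53 in CAMA1, followed by 8.01 in AU565 and 7.47 in MDAMB453.

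**Figure D1:**
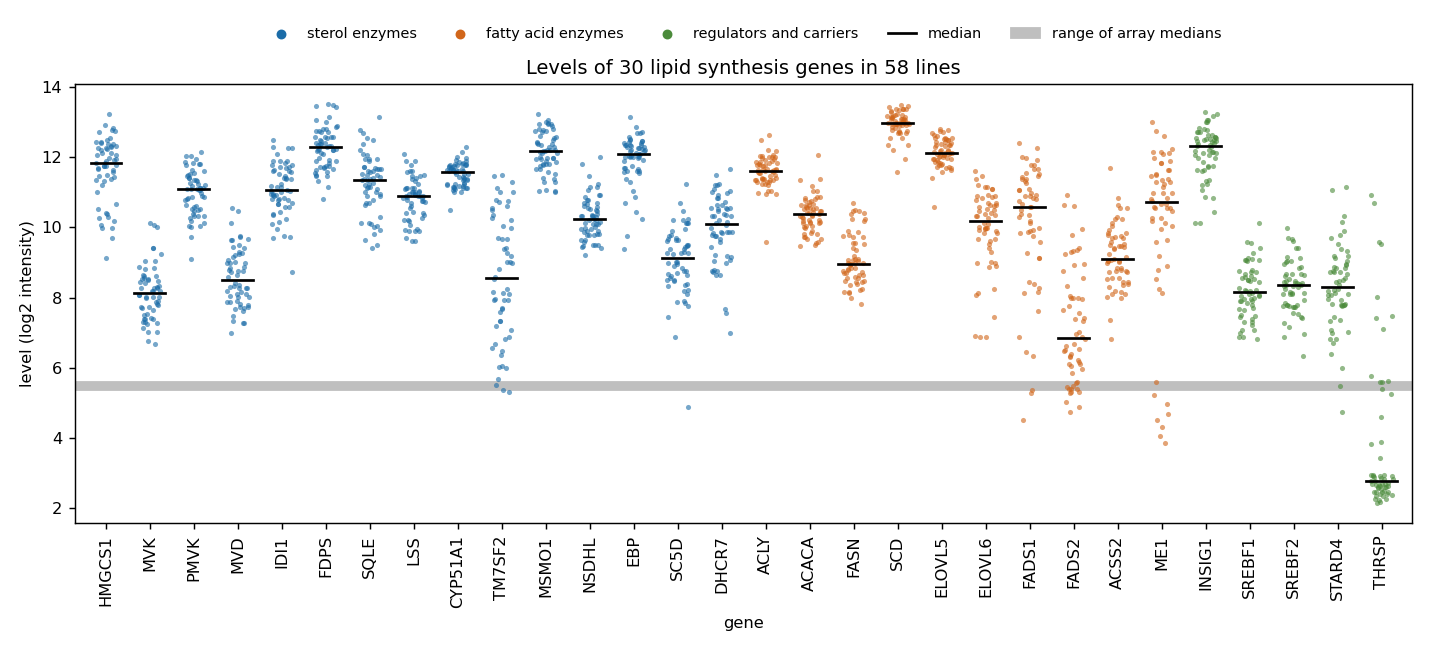
Level of each of the 30 measured members (vertical axis, log2 intensity) in the 58 lines, 1 point a line, with the median as a bar and the range of array medians, 5.37 to 5.58, as a grey band. THRSP sits under the band in most lines and reaches 10.91, while ME1 spreads from 3.85 to 13.01 and CYP51A1 and SCD stay within a narrow range.

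The sterol enzymes varied together, and the fatty acid enzymes as a list did not. Over the 50 units, the 105 pairs of sterol enzymes had a median Pearson r of 0.46, 104 of the pairs were above 0 and 45 had an r of at least 0.5. The 45 pairs of fatty acid enzymes had a median r of 0.06, from -0.53 to 0.66, and 1 pair reached 0.5. The 150 pairs across the branches had a median of 0.18, and 17 reached 0.5. For all pairs of detected genes the median was 0.00 and 0.905% reached 0.5. These are descriptions, and the points share the array platform, the normalization and the tissue label. Without the 4 Hs lines, a comparison added after the data were seen, the medians over 46 units were 0.42, 0.04 and 0.16.

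The closest sterol pairs were IDI1 with DHCR7 at 0.78, IDI1 with MSMO1 at 0.75 and MSMO1 with DHCR7 at 0.74. The 1 pair of fatty acid enzymes that reached 0.5 was FASN with SCD, at 0.66. FASN and SCD also took 16 of the 17 pairs across the branches that reached 0.5, led by MVK with FASN at 0.75, DHCR7 with SCD at 0.74 and FDPS with SCD at 0.70. The remaining pair was MSMO1 with ACACA at 0.50. FADS1 went the other way, at -0.53 with FASN and -0.53 with MVK, while FADS1 and FADS2 were at 0.48 with each other.

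**Figure D2:**
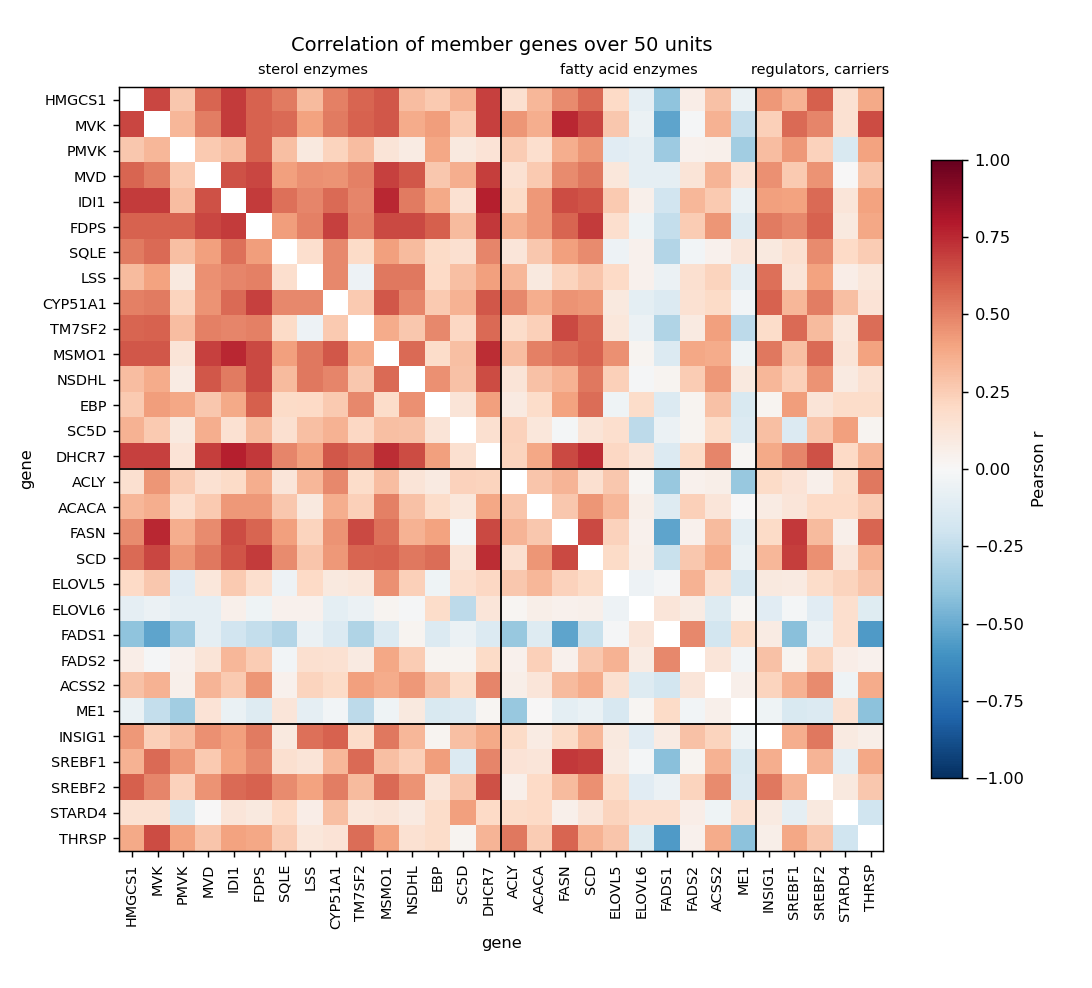
Pearson r over 50 units for each pair of the 30 members, grouped by sterol enzymes, fatty acid enzymes, and regulators and carriers (colour scale from -1 to 1). The sterol block is almost all positive, the columns of FASN and SCD carry the same colour into it, and FADS1 stands against much of it. ME1 is mixed, for example 0.14 with MVD and -0.04 with MSMO1.

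A branch score was taken as the mean, over a branch's measured enzymes, of the distance of each level from that gene's median. Each enzyme was then set against both scores, with its own value left out. All 15 sterol enzymes followed the sterol score more closely than the fatty acid score, with a median r of 0.64 against 0.15, led by FDPS at 0.84, IDI1 at 0.81 and DHCR7 at 0.81. The weakest were SC5D at 0.33 and PMVK at 0.36. Of the 10 fatty acid enzymes only 4 followed their own score more closely, and their median r was 0.12 with it and 0.26 with the sterol score. SCD stood at 0.77 and FASN at 0.70 with the sterol score, against 0.25 and -0.05 with the fatty acid score. The scores were not scaled by SD, which limits these comparisons. The fatty acid score is carried mostly by ME1, FADS1 and FADS2, with SDs of 2.44, 1.78 and 1.65, where SCD has 0.37. Single enzymes were not set against scores with each gene divided by its SD. SREBF2 had an r of 0.63 with the sterol score and 0.17 with the fatty acid score, SREBF1 0.51 and 0.03, and INSIG1 0.47 and 0.22.

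**Figure D3:**
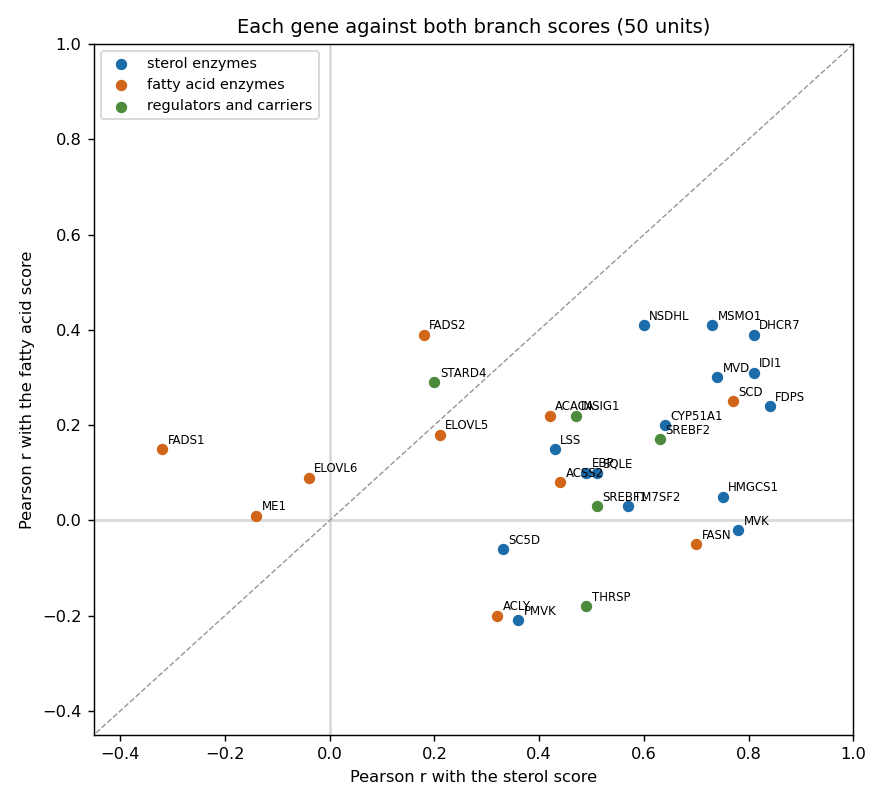
Pearson r of each member with the sterol score (horizontal) and with the fatty acid score (vertical) over 50 units, the gene's own value left out of its score; the dashed line marks equal r. FASN at 0.70 and SCD at 0.77 lie among the sterol enzymes, and FADS1 at -0.32 lies farthest to the left. The scores were not scaled by SD, so the fatty acid score is carried mostly by ME1, FADS1 and FADS2.

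Line by line, the branches were only loosely tied. The r of the 2 scores was 0.211 over the 50 units (Spearman's rho 0.208), and neither score fell into separate clusters. Both scores were above 0 in 13 units and both below in 17, and the other units split evenly, 10 above for sterol enzymes only and 10 for fatty acid enzymes only. The r of the branch scores moved with the weight of the genes: with each gene divided by its SD it was 0.616, and with regulators and carriers added to their branch it was 0.514. The fatty acid score in log2 units is carried mostly by ME1, FADS1 and FADS2, whose SDs over the units are 2.44, 1.78 and 1.65.

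The sterol score was highest in EVSAT at 0.91, HCC70 at 0.90, OCUBM at 0.90 and MDAMB468 at 0.88, and lowest in HS362T at -1.28 and HS579MG at -1.18. The fatty acid score was highest in UACC893 at 1.02, VP267 at 0.71 and MDAMB231 at 0.66, and lowest in CAL148 at -0.93 and EFM192A at -0.86. OCUBM had rank 3 of 58 by sterol enzymes and rank 56 by fatty acid enzymes, the widest gap in that direction at 1.71. Its fatty acid enzymes were not low throughout: ME1 was 4.06 and FADS1 5.38, but ACLY was 12.64, the highest of all lines, and FASN 10.42. OCUBM was among the 3 lowest lines for 2 of the 10 fatty acid enzymes and among the 3 highest for 2. SUM149PT had the widest gap in the other direction, with a sterol score of -0.59 and a fatty acid score of 0.27. The 4 Hs lines were alike over the whole profile but not in the sterol branch: HS605T and HS739T had sterol scores of -0.10 and -0.02.

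**Figure D4:**
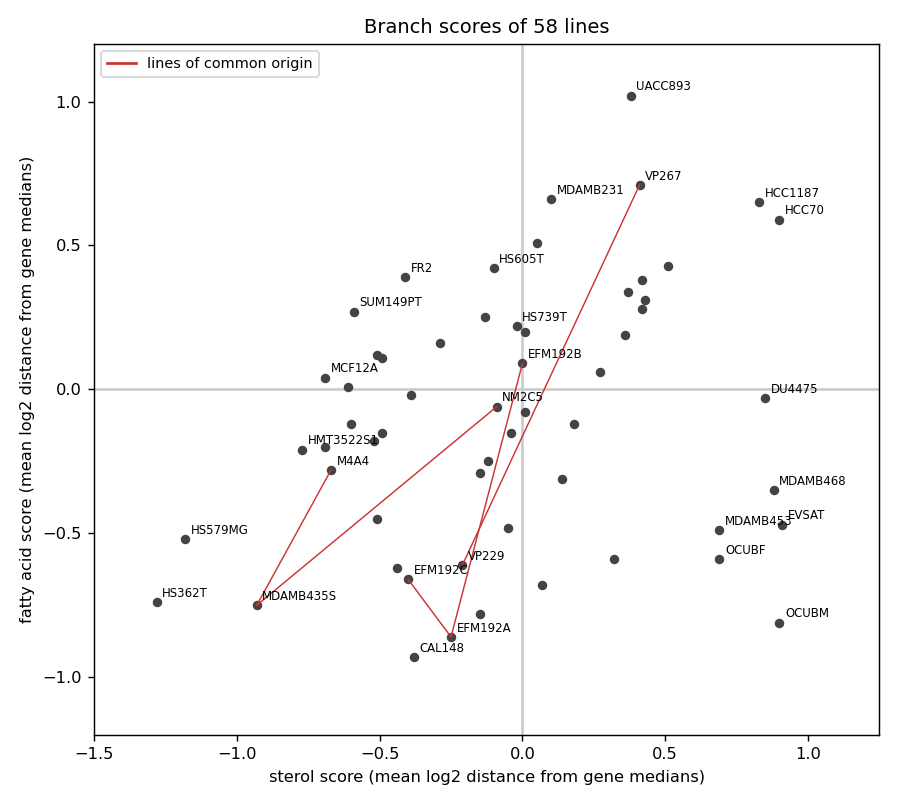
Sterol score (horizontal) and fatty acid score (vertical), both as mean log2 distance from the gene medians, for the 58 lines; red lines join the lines of 3 of the sets of common origin. The points lie on both sides of 0 for each score, with OCUBM at 0.90 and -0.81 and HS362T at -1.28 and -0.74, and VP229 and VP267 lie far apart.

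Lines of common origin were not always alike. VP267 had a sterol score of 0.41 and VP229 of -0.21, and their fatty acid scores were 0.71 and -0.61. The largest single difference was ELOVL6, at 11.45 in VP267 and 7.46 in VP229, and ACLY was 1.93 higher in VP267. In the EFM192 set ELOVL6 was 6.91 in EFM192A and 10.52 in EFM192B. In the MDAMB435 set ME1 was 4.31 in MDAMB435S, 8.52 in M4A4 and 9.18 in NM2C5, and the sterol score was -0.93, -0.67 and -0.09. AU565 and SKBR3 had sterol scores of -0.04 and -0.05, and MDAMB157 and MB157 of -0.49 and -0.51. Gene by gene MDAMB157 and MB157 were not alike. Their median absolute difference over the members was 0.69, and the median for unrelated pairs of lines was also 0.69. ME1 was 11.50 in MDAMB157 and 8.91 in MB157. Their mean epithelial levels were 5.64 and 11.39, and their mean mesenchymal and stromal levels 11.67 and 5.69. The 2 lines were still averaged to 1 unit. Over the 6 sets, 25 of the 30 members varied more between units than within sets, against 90.1% of all detected genes. The exceptions were ELOVL6, with an SD of 1.05 between units and 1.36 within sets, INSIG1 with 0.67 and 0.88, ACLY with 0.38 and 0.53, and CYP51A1 and SC5D, whose values were equal at 0.32 and 0.89. With 1 array a line, differences between cultures and between lines cannot be told apart.

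Which genes moved with each regulator was tested over all detected genes with limma, with the level of 1 gene as a continuous term, and a gene was called at a Benjamini-Hochberg adjusted p under 0.05. Slopes are log2 change per 1 SD of the regulator. SREBF2 was followed by sterol enzymes. With 1 SD of SREBF2, 0.76 log2 units, 6 of the 29 other members were higher and none was lower, against 44 of 14647 genes, which is 0.300%, in either direction, 0.253% higher and 0.0478% lower. The called members were 5 of the 15 sterol enzymes and INSIG1. DHCR7 rose by 0.65 ± 0.11 (SE, n = 50 units, limma adjusted p = 0.0029), HMGCS1 by 0.53 ± 0.10 (adjusted p = 0.0058) and FDPS by 0.36 ± 0.07 (adjusted p = 0.0079). MSMO1 rose by 0.32 ± 0.07 (limma adjusted p = 0.0094), IDI1 by 0.43 ± 0.09 (adjusted p = 0.0098) and INSIG1 by 0.36 ± 0.08 (adjusted p = 0.030). All 15 sterol enzymes had a slope above 0, with a median of 0.36 where the median over all genes was 0.01, and 13 had an unadjusted p under 0.05. None of the 10 fatty acid enzymes was called by limma. Of them 3 had an unadjusted p under 0.05, and the closest was ACSS2 at 0.37 ± 0.10 (limma adjusted p = 0.089). SREBF2 has a second, dim probe set, and with the mean of each gene's probe sets 11 members were called, the 6 above with CYP51A1, MVD, MVK, SCD and SQLE. Of the epithelial markers 0 of 9 were called with SREBF2 by limma, at a median slope of 0.535, and the 10 mesenchymal and stromal markers, of which 0 were called, had a median slope of -0.298. With the 4 Hs lines averaged to 1 unit and OCUBF with OCUBM to another, an alternative added after the data were seen, 3 of the 6 calls remained, DHCR7, HMGCS1 and INSIG1. Without KPL1 the count was 10. The 0.300% belongs to the main fit, and the shares of all genes called in these alternatives were not recorded.

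The promoters of 3 genes are shown because SREBF2 is the regulator that the sterol enzymes followed, DHCR7 had the smallest adjusted p with it, and the neighbour of MVK was the gene outside the members with the highest r with the sterol score. Each is 250 bases before to 50 after the gene's start, from RefSeq on GRCh38.p14, written 5′ to 3′ on the gene's strand. SREBF2 lies at chr22:41832855-41833154, plus strand, DHCR7 at chr11:71448344-71448643, minus strand, and MVK at chr12:109573544-109573843, plus strand. Capitals mark a short form of the sterol regulatory element, TCACNCCA, and the CCAAT box, each searched on both strands, so that ATTGG is a CCAAT box on the opposite strand.
SREBF2: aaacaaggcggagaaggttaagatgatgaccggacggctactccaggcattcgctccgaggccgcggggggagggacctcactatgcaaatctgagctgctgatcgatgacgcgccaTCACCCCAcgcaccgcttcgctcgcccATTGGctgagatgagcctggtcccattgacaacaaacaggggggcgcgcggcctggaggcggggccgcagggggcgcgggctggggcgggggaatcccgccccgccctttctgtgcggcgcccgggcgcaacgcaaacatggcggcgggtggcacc
DHCR7: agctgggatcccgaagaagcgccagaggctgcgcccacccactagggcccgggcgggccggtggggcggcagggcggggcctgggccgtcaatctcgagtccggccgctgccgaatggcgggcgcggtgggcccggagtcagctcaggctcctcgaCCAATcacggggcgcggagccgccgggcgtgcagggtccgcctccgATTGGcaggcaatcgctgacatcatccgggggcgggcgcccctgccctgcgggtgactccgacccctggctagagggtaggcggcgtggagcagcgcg
MVK: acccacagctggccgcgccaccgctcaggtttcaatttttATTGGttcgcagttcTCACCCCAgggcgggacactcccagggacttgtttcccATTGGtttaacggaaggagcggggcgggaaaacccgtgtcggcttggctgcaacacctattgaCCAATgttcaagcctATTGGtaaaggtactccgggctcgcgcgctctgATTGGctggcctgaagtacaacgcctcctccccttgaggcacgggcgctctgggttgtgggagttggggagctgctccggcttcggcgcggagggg
The table holds 30 member promoters, which are not the same 30 genes as those with levels: it includes HSD17B7 and ACSL3, and SQLE, FASN and FDFT1 have no entry. The 9-letter element TCACNCCAC stood in 1 of them, SREBF2, starting 133 bases before the gene's start, and in 1.15% of the 27305 promoters of all genes. The short form, which contains it and was added after the matches were seen, stood in 4 of 30, SREBF2, MVK, MSMO1 and ME1, and in 3.93% of all. The CCAAT box stood in 12 of the 15 sterol promoters (with HSD17B7, without SQLE and FDFT1), 5 of the 10 fatty acid promoters (with ACSL3, without FASN) and 35.7% of all promoters. MVK held 5 of them and DHCR7 held 2. The GC box, GGGCGG, stood in 14 of the same 15 sterol promoters, 8 of the same 10 fatty acid promoters and 44.6% of all. The short element is part of the longer one, and matches of different motifs can share letters, so their counts are not independent. A match is a string of letters, and binding was not measured.

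With SREBF1 the called members came from both branches. With 1 SD of SREBF1, 0.72 log2 units, 12 of 29 other members were called, 11 higher and 1 lower, where 20.3% of all genes were called, 11.9% higher and 8.43% lower. The fatty acid synthase FASN rose by 0.52 ± 0.07 (SE, limma adjusted p = 1.8e-05) and the desaturase SCD by 0.25 ± 0.04 (limma adjusted p = 3e-05). TM7SF2 rose by 1.02 ± 0.21 (limma adjusted p = 0.00082), MVK by 0.45 ± 0.09 (limma adjusted p = 0.00088) and DHCR7 by 0.50 ± 0.13 (limma adjusted p = 0.0047). FDPS, PMVK, EBP, IDI1, INSIG1 and THRSP were also higher, the last resting on the 12 lines that let it pass the filter, which makes 7 of 15 sterol enzymes and 2 of 10 fatty acid enzymes. FADS1 fell by 0.74 ± 0.23 on the log2 scale (limma adjusted p = 0.018). The median slope was 0.28 for sterol enzymes, 0.05 for fatty acid enzymes and 0.03 for all genes. ACLY and ACACA, which feed FASN, were not called, at 0.05 ± 0.05 and 0.06 ± 0.07.

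Epithelial markers moved with SREBF1 as well: 8 of 9 were higher and 7 of 10 mesenchymal and stromal markers lower, and the mean epithelial score had an r of 0.46 with SREBF1, 0.60 with ERBB2, 0.18 with SREBF2, 0.56 with the sterol score and -0.07 with the fatty acid score over the 50 units. With the epithelial score as a second term, an alternative added after the data were seen, 2 of the 12 members called with SREBF1 remained, FASN at 0.43 (limma adjusted p = 0.0049) and SCD at 0.21 (limma adjusted p = 0.0082). With the same term all 6 members called with SREBF2 remained. Without the 4 Hs lines, 5 members were called with SREBF1, namely FASN, SCD, MVK, TM7SF2 and INSIG1, and 4 with SREBF2, namely DHCR7, HMGCS1, MSMO1 and INSIG1. The shares of all genes called in these changed fits were not recorded. Whether calls were lost among the members more than among all genes was not tested.

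Whether a slope on SREBF1 differed from that on SREBF2 was tested in 1 model with both. SREBF1 and SREBF2 themselves had an r of 0.34. None of 28 members differed between the 2 by limma at an adjusted p under 0.05, 5 had an unadjusted p under 0.05, and 0.00683% of all genes were called. FASN had the largest difference relative to its error, 0.43 ± 0.13 in favour of SREBF1 (limma adjusted p = 0.15). SC5D was at -0.56 ± 0.21 (limma adjusted p = 0.21) and FADS1 at -0.94 ± 0.40 (limma adjusted p = 0.26), with the lower slope on SREBF1. With INSIG1 as the term, 2 of 29 members were higher, LSS by 0.32 ± 0.07 (limma adjusted p = 0.047) and CYP51A1 by 0.19 ± 0.04 (limma adjusted p = 0.038), where 0.0819% of all genes were called. All 15 sterol enzymes had a slope above 0 with INSIG1, and 11 had an unadjusted p under 0.05. Leaving out 1 unit moved the count of calls with INSIG1 between 0 and 5. For 33 of the 50 units it moved by over 1.5 times, so this count is not firm. The single calls were not followed there. Over 13 other alternatives CYP51A1 kept its call in 11 and LSS in 5.

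Receptor and lineage genes were taken as terms in the same way. ERBB2, the receptor kinase of the 17q12 amplicon, had 13 of 30 members called, 12 higher and 1 lower, where 21.3% of all genes were called, 12.3% higher and 8.96% lower. MVK rose by 0.49 ± 0.09 per SD of ERBB2 (limma adjusted p = 0.00012) and FASN by 0.43 ± 0.09 (limma adjusted p = 0.00031). THRSP is counted among the called members with a slope of 1.38 ± 0.27, given as a description only, since it passed the filter on low values through the 12 lines where it is high and the stricter filter leaves it out. SREBF1 rose by 0.41 ± 0.09 (limma adjusted p = 0.00052) and SCD by 0.19 ± 0.04 (limma adjusted p = 0.0014). FADS1 fell by 1.08 ± 0.20 on the log2 scale (limma adjusted p = 0.00013). The others were HMGCS1, TM7SF2, MSMO1, IDI1, DHCR7, FDPS and SQLE, which makes 8 of 15 sterol enzymes, 2 fatty acid enzymes higher and FADS1 lower. All 9 epithelial markers were higher with ERBB2. With the epithelial score as a second term the 1 call was THRSP, with the same limit, and the share of all genes called was not recorded. FADS1 was then at -0.86 (limma adjusted p = 0.053). Of the members on chromosome 17, where ERBB2 lies, FASN and SREBF1 were called, and ACLY and ACACA were not, at 0.10 ± 0.05 and 0.15 ± 0.07.

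**Figure D5:**
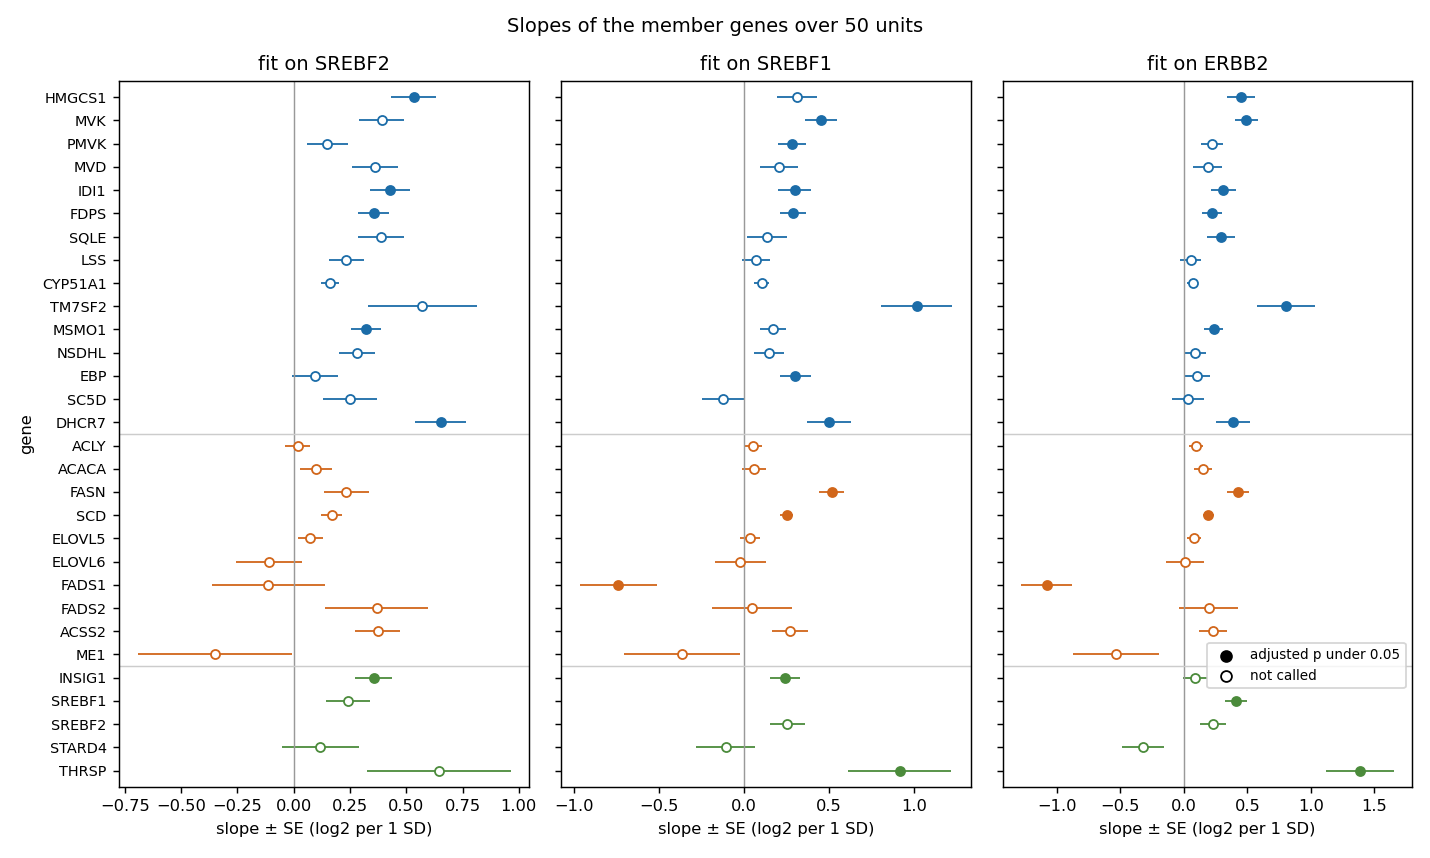
Slope of each member (log2 change per 1 SD of the term gene, with the SE as a bar) in the fits on SREBF2, SREBF1 and ERBB2 over 50 units, coloured by list; filled points have a limma adjusted p under 0.05. The filled points are sterol enzymes and INSIG1 for SREBF2, and include FASN, SCD and THRSP above 0 and FADS1 under 0 for SREBF1 and ERBB2. THRSP passed the filter on low values through the 12 lines where it is high.

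With ESR1, the estrogen receptor, 0 of 30 members were called by limma and 2 had an unadjusted p under 0.05, where 0.833% of all genes were called. With CDH1, the epithelial cadherin, 0 of 30 members were called by limma and 4 had an unadjusted p under 0.05, where 2.36% of all genes were called. Both genes fall into separate clusters of units, and these fits compare lines within the clusters. Without the cluster as a factor, 9 members were called with CDH1, among them DHCR7, HMGCS1, FASN and SCD. The 2.36% belongs to the fit with the factor. The share of all genes called without it was not recorded, so the 9 cannot be set against a background. With MKI67, a marker of dividing cells, 1 of 30 members was called, EBP at 0.30 ± 0.09 (limma adjusted p = 0.047), where 5.83% of all genes were called. Of 9 other proliferation markers, all 9 were higher with MKI67. Leaving out any of 27 units ended the call of EBP.

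Of the 18 other sterol genes measured and detected, 1 was higher with SREBF2, ERG28, a scaffold of sterol enzymes, by 0.34 ± 0.06 (limma adjusted p = 0.0049). With SREBF1, where 20.3% of all genes were called, 7 were higher and 3 lower. The 3 with the smallest adjusted p were GGPS1, which makes the prenyl chain of many small GTPases, at 0.29 ± 0.06 (limma adjusted p = 0.0016), MYLIP, a ubiquitin ligase of lipoprotein receptors, at 0.59 ± 0.14 (limma adjusted p = 0.0022), and SOAT1, which esterifies cholesterol, at -0.63 ± 0.17 (limma adjusted p = 0.0061). The cholesterol exporter ABCA1 and the lysosomal transporter NPC1 were also lower. With ERBB2, where 21.3% of all genes were called, 5 were higher and 3 lower, led by MYLIP at 0.61 ± 0.14 (limma adjusted p = 0.0010), GGPS1 at 0.23 ± 0.07 (limma adjusted p = 0.012) and SCAP, the escort of the pathway's transcription factors, at 0.15 ± 0.05 (limma adjusted p = 0.016). Of the 26 other fatty acid genes, 1 was higher with SREBF2, the mitochondrial citrate carrier SLC25A1, by 0.36 ± 0.08 (limma adjusted p = 0.034). With SREBF1, 6 were higher and 3 lower, led by SLC25A1 at 0.38 ± 0.08 (limma adjusted p = 0.0012), the enoyl reductase TECR at 0.28 ± 0.07 (limma adjusted p = 0.0025) and the acyl-CoA synthetase ACSL1 at 0.47 ± 0.12 (limma adjusted p = 0.0039). With ERBB2, 4 were higher and 2 lower, which is 6 of 26. The 3 with the smallest adjusted p were SLC25A1 at 0.47 ± 0.07 (limma adjusted p = 1.1e-05), ACSL4, an acyl-CoA synthetase for polyunsaturated acids, at -1.60 ± 0.26 (limma adjusted p = 2.2e-05), and the cytosolic NADPH source IDH1 at 0.30 ± 0.06 (limma adjusted p = 0.00055). ACSL4 and FADS3 were lower with both SREBF1 and ERBB2, as FADS1 was; ERBB2 and SREBF1 had an r of 0.57.

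The genes outside the members that most resembled the sterol score over the 50 units were MMAB at an r of 0.77, RUSC1-AS1 at 0.75 and ERG28 at 0.74. They were followed by DBNDD1, ENTPD2, SHANK2, SLC25A1, MIR600HG, TTC39A and MYB, at 0.71 to 0.65. MMAB, an enzyme of vitamin B12 handling, starts 290 bases from MVK and runs the other way, and the promoter windows of the pair share 211 bases, so the MVK sequence above is largely the promoter of both. MVK and MMAB had an r of 0.82. RUSC1-AS1 is a non-coding RNA on the strand opposite FDPS whose gene overlaps it in the gene table, and the pair had an r of 0.83. Whether its probe set also binds FDPS transcripts was not tested. The r of FDPS with its 4 detected neighbours, RUSC1-AS1 among them, averaged 0.62, above that of 99.0% of genes. FASN had 0.50, above 95.3%. They were the only 2 of 30 members above 0.49, the 95th percentile of all genes, which is near the share of any genes. The 30 members had a median neighbour r of 0.24 against 0.21 for all genes. The fatty acid score had weaker resemblances, led by WFDC2 at 0.58, RUNX2 at 0.54 and ABCC3 at 0.53.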

How the data were processed

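The authors deposited 1 table of log2 intensity per probe set, with RMA and Affymetrix Power Tools named in the submitters' processing notes. Per the labels, RNA went through a NuGEN amplification and carried biotin. RMA corrects background, sets all arrays to 1 distribution and sums probes to probe sets, so a shift shared by most genes of a line is lost. Whether the 58 arrays were processed together is not given in the sources used here. Of 52377 probe sets, 35184 carry a single gene name and entered; 374 with several names and 16819 with none did not. For each gene the probe set with the highest mean was kept, and 14648 of 19798 genes passed the filter, a level over the array's median in 3 or more units. Promoters and gene order came from RefSeq tables on GRCh38.p14.

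The members, gene lists, terms and alternatives were chosen with earlier results of these data known. The lists of other sterol and fatty acid genes and of markers were drawn up from textbook knowledge. Lines of common origin were averaged from textbook knowledge, not from the labels. Fits used limma 3.58.1 (trend and robust eBayes) in R 4.3.3 over all detected genes, leaving out the term gene. Units count as clustered when mclust 6.1.1 prefers a mixture of 2 components by more than 10 BIC points, Ashman's D exceeds 2 and each component holds 3 or more units. The cluster then enters the fit as a factor. P-values measure the spread between units, in which differences between lines, cultures and arrays cannot be told apart. The fits were tested on simulated data with planted slopes. All 30 members are described; for each fit the up to 5 members with the smallest adjusted p in each direction are given in full, with 10 genes per score, the nearest 2 detected genes on each side, and the 3 other genes with the smallest adjusted p. A further planned fit is not reported here.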

Additional observations from a re-analysis of the deposited data

How the results depend on the processing

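No slope reversed. The counts with ESR1 and of members that differed between SREBF1 and SREBF2 were 0 under every alternative run. Members called with SREBF2 numbered 6, with 11 for the mean of probe sets and 3 with the Hs lines and the OCUB lines averaged, and 5 to 10 leaving out 1 unit in turn. Those with SREBF1 numbered 12, with 5 without the 4 Hs lines, 2 with the epithelial score as a term and 7 with the Hs and OCUB lines averaged, and 10 to 15 leaving out 1 unit. Those with ERBB2 numbered 13, with 1 with the epithelial score as a term, which was THRSP, and 10 to 15 leaving out 1 unit. THRSP also counts among the 13 and among the 12 with SREBF1, and it passed the filter on low values through the 12 lines where it is high. Those with INSIG1 numbered 2, with 1 for the mean of probe sets, no filter, a stricter filter, and neither trend nor robust fitting, 0 without the 2 farthest units, and 0 to 5 leaving out 1 unit. Those with CDH1 numbered 0, with 9 without a cluster factor. The 1 with MKI67 became 0 with a second quantile normalization, no filter, array quality as a term, neither trend nor robust fitting, without the 4 Hs lines, without the 2 farthest units or with the Hs and OCUB lines averaged, and 2 with all 58 lines, and was 0 to 1 leaving out 1 unit. The r of the branch scores was 0.211, with 0.514 with regulators and carriers and 0.616 with each gene divided by its SD. The SD of the sterol score was 0.543, with 0.688 when each gene was divided by its SD. The causes were not tested. Leaving out probe sets marked for cross-hybridisation changed nothing because none named a single gene. The alternatives on the Hs and OCUB lines and on the epithelial score were added after the data were seen. With 1 array a line, the depth limit is the number of lines.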
